A study of Mus musculus with 9 samples.

Results

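Blood monocytes of mice that lack Ccr2, the receptor for the chemokine CCL2, were compared with those of wild type mice across all measured genes. The comparison took every array labelled Ccr2-/- (3) and every array labelled wild type (3), which makes 6 of the 9 arrays in the series. The other 3 arrays come from Ccl2-/- mice, which lack the ligand. They show where the receptor knockout also differed from the ligand knockout. They also enter the shared estimate of the spread behind every limma p given here. All mice were tumor-free, of Balb/c background and 14 to 18 weeks old, and the blood of 5 mice was pooled for each array before sorting. From white blood cells, magnetic sorting removed those with CCR3, MHC class II, Ly-6G, B220, CD8 or CD4 on the surface, and CD11b was then used for selection. A monocyte in this study also lacks NK1.1 and CD11c, but neither is among the depleting antibodies, so NK cells with CD11b can remain in the selected fraction. RNA was hybridised to Affymetrix Mouse Gene 1.0 ST arrays, whose probes lie along the whole transcript.

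CCR2 is the receptor through which inflammatory monocytes leave the bone marrow for the blood. Mouse blood holds a Ly-6Chi subset, which carries CCR2 and moves into inflamed tissue, and a Ly-6Clo subset, which depends on the nuclear receptor Nr4a1 and patrols the vessel wall. A fraction selected by CD11b holds both subsets and other cells with that integrin, NK cells among them. An array reads the summed RNA of such a fraction, so fewer cells of a type and less RNA per cell cannot be told apart in any value given here.

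Values are log2 of the deposited intensity, and a fold is the ratio of the geometric means of 3 Ccr2-/- and 3 wild type arrays. The median intensity was 343.6 to 354.7 on the Ccr2-/- arrays and 324.1 to 355.1 on the wild type arrays, and each array correlated with the others of its genotype at a mean r of 0.992 to 0.994 across genes. On the Ccl2-/- arrays the median intensity was 335.0 to 430.8, highest on replicate 1, and this mean r was 0.972 to 0.984. Of 19936 genes, 978 (4.91%) were higher and 1670 (8.38%) were lower in Ccr2-/- than in wild type monocytes at a limma adjusted p under 0.05, which is what "rose" and "fell" mean below. Leaving out an array of wild type gave 567 higher genes (replicate 1) and 638 (replicate 2), and leaving out an array of Ccr2-/- gave 553 (replicate 1, with 1110 lower) and 581 (replicate 2). The counts were 1317 higher and 1379 lower after quantile normalization. They were 1241 higher and 1898 lower in a fit of the 6 arrays without Ccl2-/-. The median fold over all genes was 1.007 against wild type and 0.945 against Ccl2-/- monocytes. Past the test and changed over 2-fold were 103 higher genes (0.517%) and 195 lower genes (0.978%). The size limits of the study's methods, a ratio over 1.2 and a difference over 100 of mean intensities, took in 3144 genes (15.8%), and 2375 of them also passed the limma test. The direct test of Ccr2-/- against Ccl2-/- monocytes called 718 genes (3.6%), and 23 and 22 without Ccr2-/- replicates 1 and 2, so direct differences are given below mostly for genes called in all of the alternative settings of that test. The number of arrays limits the precision, and every p measures the spread between pools. The gene lists named below were written by hand with earlier results of these data known, so their counts are not independent of these values. The counts are to be read beside the shares of all genes just given. Where a list's count moved by over 1.5 times between settings, the count that moved or the number called in every alternative setting, each array left out in turn included, is given beside it.

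Ccr2 had a log2 intensity of 13.26, 13.02 and 12.99 on the wild type arrays and of 9.41, 9.44 and 9.47 on the Ccr2-/- arrays. The genotypes were far apart, with a fold of 0.0797 (log2 change -3.65, standard error 0.10, limma adjusted p = 4.33e-06), and each array matched its label. Ccr3, the eotaxin receptor and the nearest measured gene to Ccr2 on chromosome 9, read 8.10, 8.45 and 8.11 in wild type and 9.16, 9.24 and 9.15 in Ccr2-/- monocytes. All Ccr2-/- arrays lay above all wild type arrays (1.95-fold, limma adjusted p = 0.000793), and Ccr3 was also higher than in Ccl2-/- monocytes (2.24-fold, adjusted p = 0.00454). CCR3 was one of the depleted surface proteins, and the other 6 measured eosinophil genes were not called. Of the 30 measured genes nearest to Ccr2, all on one side of it because it is the last of its chromosome here, 2 rose and 2 fell. The other gene that rose was Fyco1, an adaptor of autophagosome transport (1.47-fold, limma adjusted p = 0.00784), whose adjusted p was 0.0564 after centring arrays on their medians. The chemokine receptors Ccr1, Ccr9, Cxcr6 and Xcr1 nearby were not called. The sources used here do not say where the probes of Ccr2 lie relative to its deleted part.

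**Figure D1:**
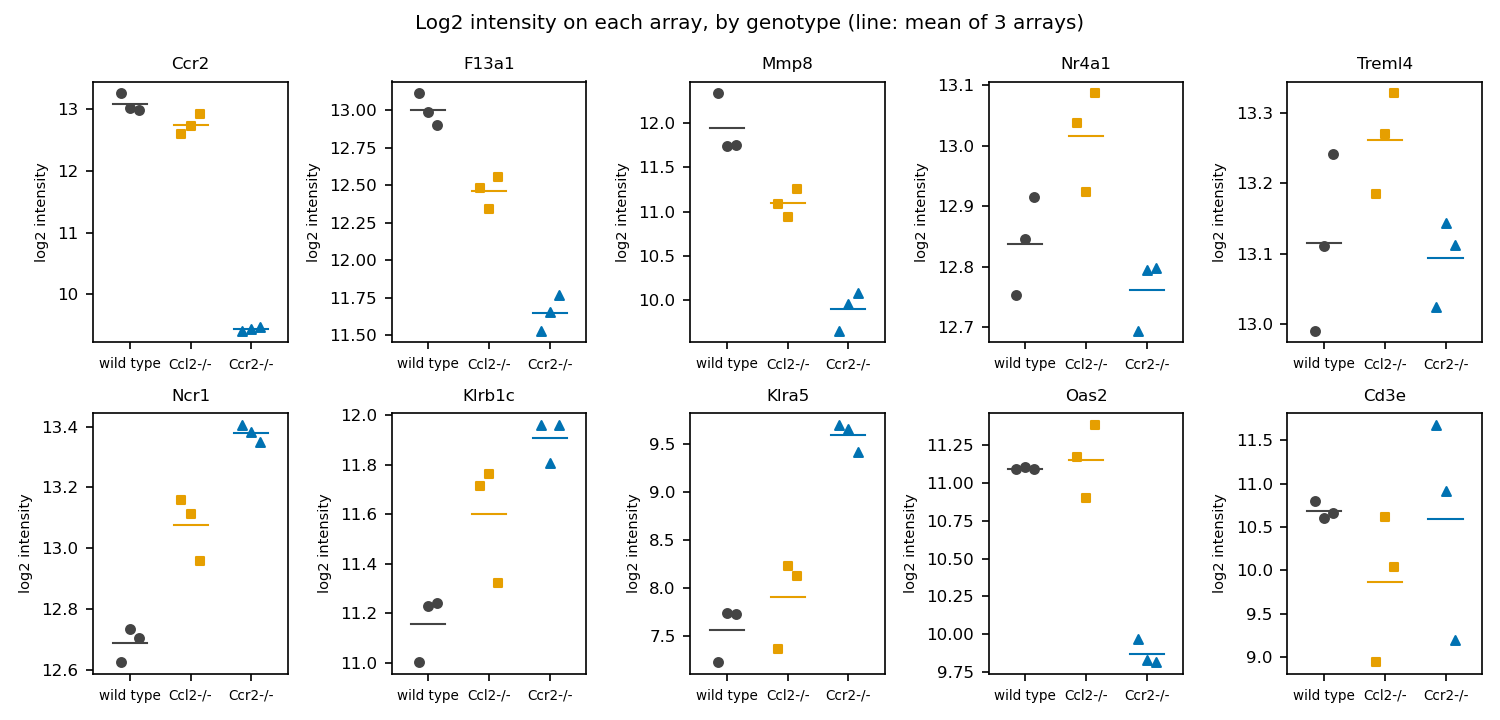
Log2 intensity (y axis) of 10 genes on each array of the wild type, Ccl2-/- and Ccr2-/- groups (x axis), with points for arrays and a line for the mean of 3. The Ccr2-/- arrays lie below the wild type arrays for Ccr2, F13a1, Mmp8 and Oas2 and above them for Ncr1, Klrb1c and Klra5, overlap them for Nr4a1 and Treml4, and spread from 9.20 to 11.68 for Cd3e.

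Genes of the Ly-6Chi subset were lower. All 9 measured members of this list fell, with folds of 0.243 to 0.653 and a median of 0.392. F13a1, a subunit of the clotting transglutaminase, read 13.11, 12.99 and 12.90 in wild type and 11.53, 11.66 and 11.77 in Ccr2-/- monocytes. The groups did not overlap (log2 change -1.35, standard error 0.09, limma adjusted p = 0.000322). Mmp8, a collagenase, read 12.34, 11.74 and 11.75 in wild type and 9.66, 9.96 and 10.08 in Ccr2-/- monocytes, again without overlap (0.243-fold, limma adjusted p = 0.000579). The glutathione transferase Mgst1 (0.374-fold), the matrix protein Fn1 (0.597-fold) and the hemoglobin-binding protein Hp (0.4-fold) fell as well (limma adjusted p 0.00038 to 0.0011). Wild type replicate 1 was the highest array for Chil3, a chitinase-like protein, and for the proteoglycan Vcan. Chil3 read 11.55 there against 10.30 and 10.04 on the other wild type arrays, and Vcan 10.46 against 8.75 and 8.84. Chil3 had a limma adjusted p of 0.0357 (0.288-fold) and Vcan one of 0.0495 (0.359-fold). Each lost its call in 8 of 17 alternatives, among them without any 1 of the Ccr2-/- arrays (adjusted p 0.0525 to 0.125 for Chil3 and 0.0529 to 0.163 for Vcan over these alternatives). Chil3 also lost it without wild type replicate 1 or 2, Vcan without wild type replicate 3, and both without Ccl2-/- replicate 2. The mean of the list was 12.25, 11.70 and 11.65 on the wild type arrays and 10.46, 10.53 and 10.68 on the Ccr2-/- arrays. In the direct comparison 7 of the 9 were also lower in Ccr2-/- than in Ccl2-/- monocytes, beside 2.87% of all genes, and none was without Ccr2-/- replicate 1 or replicate 2. Array clusters shared by several genes were not used, so Ly6c1 and Ly6c2 are not analysed here.

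Genes of the Ly-6Clo subset did not shift as a list. Of its 18 measured members, 2 rose, none fell, and the median fold was 1.00. The number that rose was 4 without wild type replicate 3 and 1 without any 1 Ccr2-/- array. The tetraspanin Cd9 read 10.39, 10.45 and 10.56 in wild type and 11.19, 11.21 and 11.26 on the Ccr2-/- arrays (1.68-fold, limma adjusted p = 0.000612). The sialophorin Spn, or CD43, was the other gene that rose (1.31-fold, limma adjusted p = 0.0198), and it lost its call without any 1 of the 3 Ccr2-/- arrays and after centring (adjusted p 0.0554 to 0.0845). Nr4a1, on which the subset depends, read 12.75, 12.85 and 12.91 in wild type and 12.69, 12.79 and 12.80 in Ccr2-/- monocytes. The groups overlapped, and the log2 change was -0.08 with a standard error of 0.07 (limma adjusted p = 0.703). The receptor Treml4 (0.985-fold, limma adjusted p = 0.954) and the peptidase Ace (0.996-fold, adjusted p = 0.985) had overlapping arrays too. The mean of the list was 11.81, 11.96 and 12.10 on the wild type arrays, so its span within wild type covered the Ccr2-/- arrays at 11.97, 12.06 and 12.01.

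Genes used by both subsets were lower in part. Of 19 measured members of the pan-monocyte list, 13 fell and none rose, with a median fold of 0.776. Cebpa, a transcription factor of myeloid cells, read 11.33, 11.31 and 11.15 in wild type and 9.86, 10.11 and 10.08 on the Ccr2-/- arrays (0.421-fold, limma adjusted p = 0.000534). Cd14, the co-receptor for bacterial lipopolysaccharide, read 9.93, 9.68 and 9.37 against 8.24, 8.26 and 8.36 (0.386-fold, adjusted p = 0.00151). For both genes every Ccr2-/- array was below every wild type array. The surface receptor Adgre1, or F4/80 (0.571-fold), the pore protein Mpeg1 (0.695-fold) and the IgG receptor Fcgr1 (0.477-fold) fell with limma adjusted p of 0.00149 to 0.00271. Itgam, which encodes the CD11b used for selection, was level (12.91, 12.81 and 12.81 against 12.84, 12.88 and 12.91; limma adjusted p = 0.867). The lysozyme gene Lyz2 was 0.908-fold of wild type (limma adjusted p = 0.211). With each array centred on its median, 7 of the 19 fell.

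**Figure D2:**
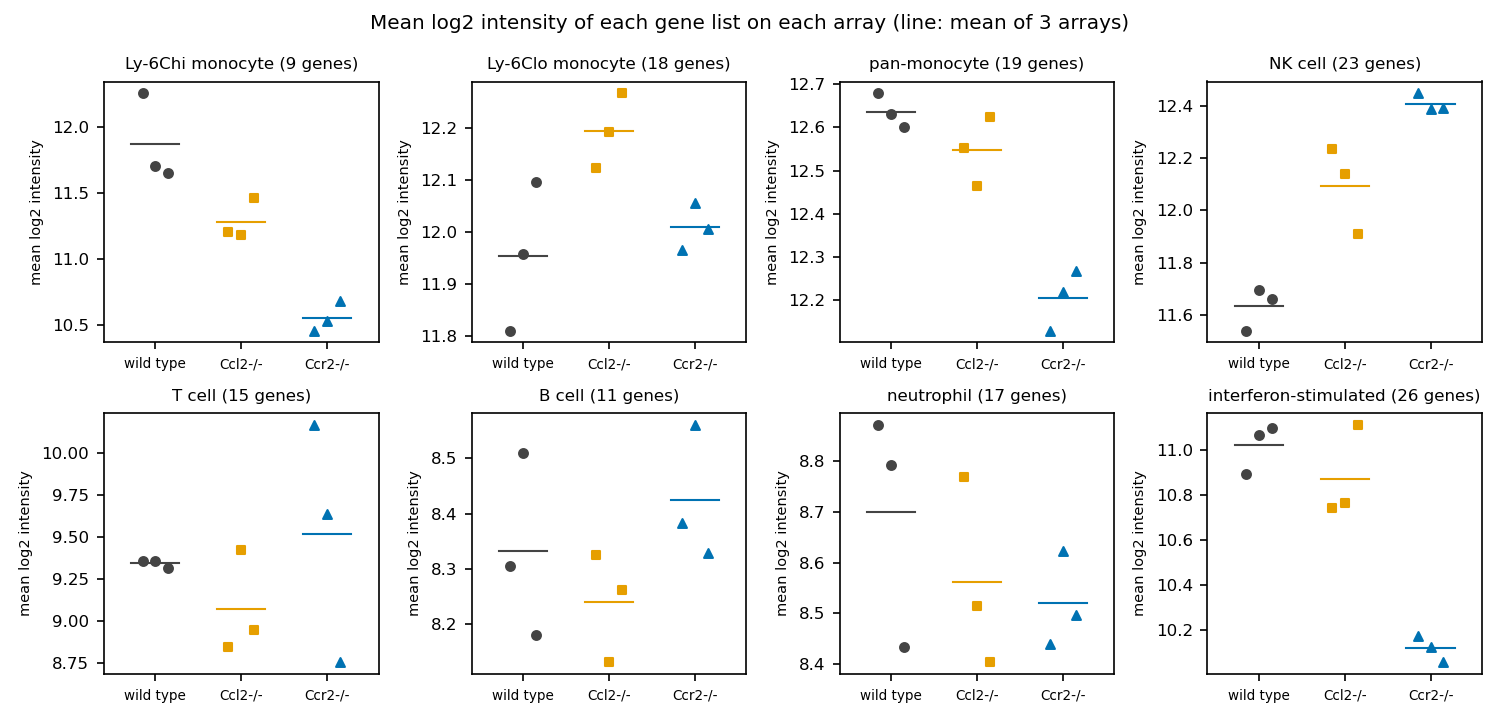
Mean log2 intensity (y axis) of the measured members of 8 gene lists on each array, by genotype (x axis), with points for arrays and a line for the mean of 3. The Ccr2-/- arrays lie below the wild type arrays for the Ly-6Chi, pan-monocyte and interferon-stimulated lists and above them for the NK cell list, and the T cell list spreads from 8.76 to 10.17 within Ccr2-/-.

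Genes of NK cells were higher. All 23 measured members of the NK cell list rose, with folds of 1.25 to 2.38. The activating receptor Ncr1, or NKp46, read 12.63, 12.73 and 12.70 in wild type and 13.41, 13.38 and 13.35 on the Ccr2-/- arrays (1.61-fold, limma adjusted p = 0.000829). Klrb1c, which encodes NK1.1, read at most 11.24 in wild type against 11.96, 11.81 and 11.96 in Ccr2-/- monocytes (1.68-fold, adjusted p = 0.00527). In both genes the groups were apart. The mean of the list was 11.54, 11.70 and 11.66 on the wild type arrays and 12.45, 12.39 and 12.39 on the Ccr2-/- arrays. Of the list's members 18 were called higher than in wild type in every alternative setting. Against Ccl2-/- monocytes the median fold of the list was 1.23, beside 0.945 over all genes. In this direct test 1 of the 23 was called higher, beside 0.732% of all genes. It was Tbx21, whose direct call was lost in 9 of 16 settings. The median fold of the list in Ccl2-/- over wild type monocytes was 1.38.

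Markers of other cells in blood were read in the same way. Of 15 T cell genes none was called, and the Ccr2-/- arrays differed widely among themselves. The T cell receptor subunit Cd3e read 10.80, 10.60 and 10.66 in wild type and 11.68, 10.92 and 9.20 in Ccr2-/- monocytes, and the mean of the list was 9.36, 9.36 and 9.32 against 10.17, 9.64 and 8.76. Cd4, a depleted surface protein, followed the same order of arrays (10.58, 9.66 and 8.12 in Ccr2-/-). Of 11 B cell genes 1 rose, Cd22 (1.68-fold, limma adjusted p = 0.00752), and of 12 basophil and mast cell genes 1 rose, the chymase Cma1 (2.22-fold, adjusted p = 0.00101). No member of the platelet (8) or erythroid (6) lists was called. Of 17 neutrophil genes 2 fell, the surface protein Cd177 (0.26-fold, limma adjusted p = 0.000172) and the growth factor receptor Csf3r (0.519-fold, adjusted p = 0.000653), while Ly6g and S100a9 were not called (0.891- and 0.79-fold). Of 11 conventional dendritic cell genes 5 fell, among them the cytokine receptor Flt3 (0.592-fold), the peptidase Dpp4 (0.626-fold) and the kynurenine enzyme Kmo (0.343-fold), with limma adjusted p of 0.00102 to 0.00289.

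The receptor families of NK cells held genes that rose and, in each, 1 member that fell. Of 17 NKG2 and NKR-P1 genes 14 rose, with a median fold of 1.79. Klrc1, Klrc2 and Klre1 among them are also in the NK cell list, so this count is not a separate result. The inhibitory and activating subunits Klrc3 (2.45-fold), Klrc2 (2.10-fold) and Klrc1 (2.00-fold), the receptor Klre1 (2.38-fold) and its relative Klri2 (1.76-fold) had limma adjusted p of 0.000397 to 0.00101. Clec2i, which encodes a ligand for receptors of this group, fell (0.643-fold, limma adjusted p = 0.00351). Of 6 measured Ly49 genes 4 rose. Klra5 read 7.23, 7.74 and 7.73 in wild type and 9.70, 9.66 and 9.42 in Ccr2-/- monocytes, which was the largest rise among all genes that the naming rule admits (4.08-fold, limma adjusted p = 0.00109). Klra8 (2.39-fold), Klra6 (2.19-fold) and Klra3 (2.02-fold) followed (limma adjusted p 0.000548 to 0.0014). Klra2 read 11.15, 11.09 and 11.14 in wild type and 10.42, 10.33 and 10.52 in Ccr2-/- monocytes, so this Ly49 gene fell (0.614-fold, limma adjusted p = 0.00263). Which cells of the fraction carried Klra2 RNA, NK cells or others, cannot be told from these values. Ly49 genes are close copies of each other, and the sources used here do not say how well the probes of this array separate them. Nor do they say which Ly49 genes Balb/c mice carry. The 4 that rose therefore cannot be taken as 4 separate genes, and each rise is that of an array cluster under its annotated name.

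Lymphocyte regulators rose with the NK cell genes. Some lists of this paragraph share members with the NK cell list, Tbx21, Il2rb, Prf1 and Gzmb among them, so their counts are not separate results. Of 19 lymphoid transcription factors 12 rose and 1 fell, and of 22 genes of lymphocyte receptor signalling 16 rose and 1 fell. In every alternative setting 10 and 14 of them rose and none fell. The factors with the smallest p were Ikzf3 (1.86-fold), Tbx21 (1.89-fold), Runx3 (1.69-fold), Zfpm1 (2.10-fold) and Gata3 (2.12-fold), at limma adjusted p of 0.000741 to 0.00103. The cytokine receptor subunits Il18r1 (1.93-fold), Il12rb2 (2.07-fold) and Il2rb (1.71-fold), the kinase Zap70 (2.02-fold) and the kinase Prkcq (2.05-fold) rose as well (limma adjusted p 0.00086 to 0.00139). The T cell list, whose mean ran from 8.76 to 10.17 within the Ccr2-/- arrays, shares genes of this kind, and its part in these rises was not tested. All 8 GIMAP genes, GTPases of lymphocyte survival encoded in 1 cluster, rose by 1.67- to 2.18-fold. Gimap7 read 8.72, 8.69 and 8.84 in wild type and 10.02, 9.88 and 9.73 in Ccr2-/- monocytes (limma adjusted p = 0.000892), without overlap. Of 20 genes of cytotoxic granules 8 rose, among them the pore protein Prf1 (1.69-fold), the protease Gzmb (1.72-fold) and the cathepsin Ctsw (1.83-fold), with limma adjusted p of 0.000834 to 0.00124. Lamp1, a membrane protein of all lysosomes, fell (0.71-fold, limma adjusted p = 0.00203).

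**Figure D3:**
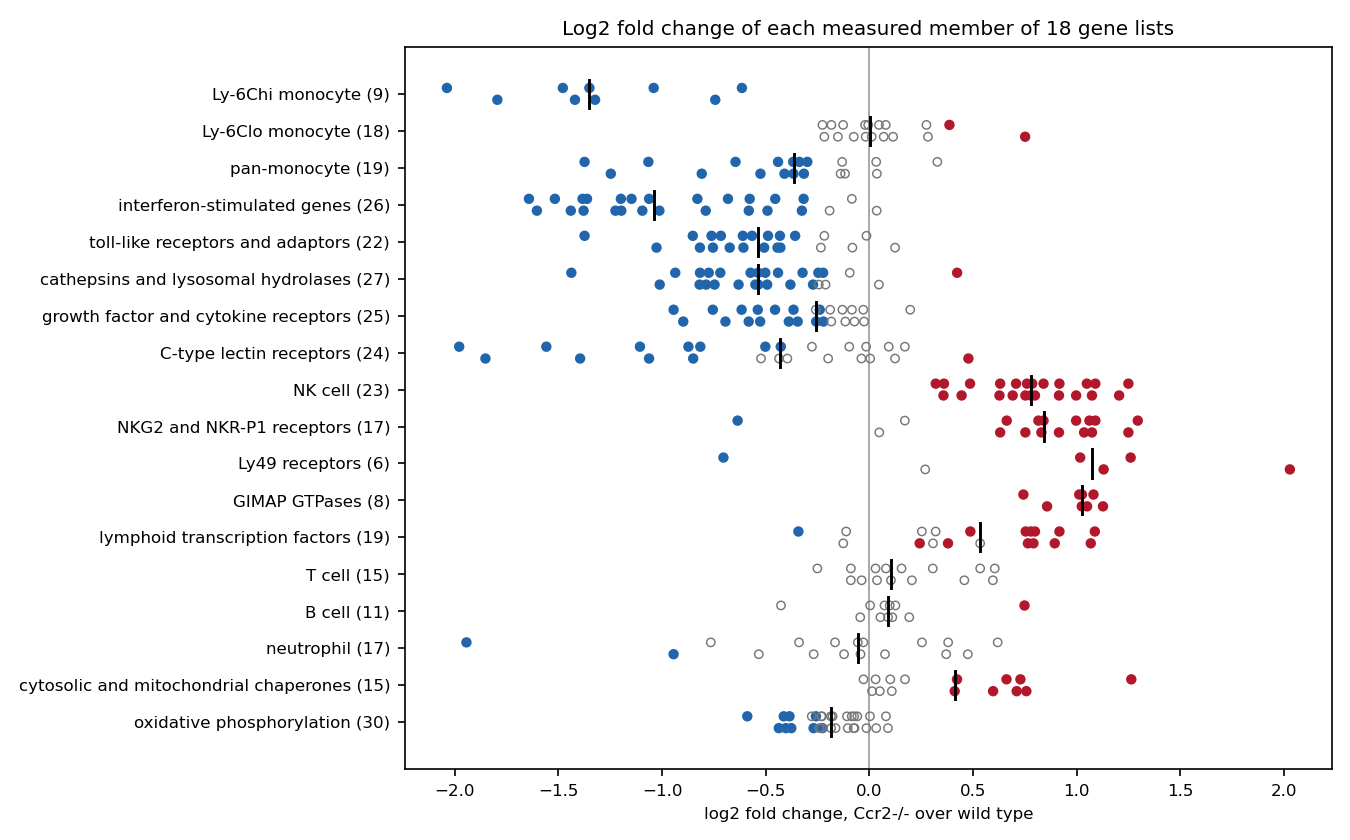
Log2 fold change of Ccr2-/- over wild type (x axis) for every measured member of 18 gene lists (y axis, number of members in brackets). Filled points passed the limma test (red higher, blue lower), open points did not, and the black line is the median: all 9 Ly-6Chi genes lie to the left, all 23 NK cell and all 8 GIMAP genes to the right, and 16 of 18 Ly-6Clo genes are open.

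Myeloid transcription factors moved in both directions. Of 28 measured factors 13 fell and 4 rose, 8 and 2 of them in every alternative setting. Ahr, the aryl hydrocarbon receptor, read 11.27, 11.07 and 11.15 in wild type and 9.56, 9.66 and 9.68 on the Ccr2-/- arrays (0.347-fold, limma adjusted p = 0.000209), and it was lower than in Ccl2-/- monocytes too (0.533-fold, adjusted p = 0.00593). The related factors Tfec (0.285-fold) and Mitf (0.411-fold) and Cebpd (0.567-fold) fell, with limma adjusted p of 0.000342 to 0.00086. Irf5, a factor downstream of toll-like receptors, fell to 0.665-fold (limma adjusted p = 0.00263). Those that rose included the orphan receptor Nr4a3 (1.88-fold, limma adjusted p = 0.00127) and Bhlhe40 (1.36-fold, adjusted p = 0.00555), whose relative Bhlhe41 fell (0.713-fold, adjusted p = 0.00386).

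Receptors through which monocytes sense cytokines, antibodies and sugars were lower in part. Of 25 growth factor and cytokine receptors 15 fell and none rose, with Csf3r, the signalling chain Il6st (0.537-fold), the interferon-gamma receptor chain Ifngr2 (0.618-fold) and Il6ra (0.694-fold) at limma adjusted p of 0.000653 to 0.00155. With each array centred on its median, 8 of them fell. Of 13 Fc receptors and ITAM adaptors 5 fell, led by the inhibitory receptor Pirb (0.516-fold, limma adjusted p = 0.000746), and Fcgr3 (0.639-fold) and Fcgr2b (0.728-fold) fell with adjusted p of 0.00276 and 0.00958. Fcgr4, the IgG receptor typical of Ly-6Clo cells, was 1.08-fold of wild type (limma adjusted p = 0.594), and the shared adaptor Fcer1g was 1.02-fold (adjusted p = 0.881). Of 24 C-type lectin receptors 11 fell, 9 of them in every alternative setting, and 1 rose. Among them were the galactose lectin Clec10a (0.254-fold), the adaptor-coupled receptor Clec5a (0.277-fold), Cd302 (0.38-fold), the beta-glucan receptor Clec7a (0.555-fold) and the mannose receptor Mrc1 (0.546-fold), with limma adjusted p of 0.00082 to 0.00126.

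Paired receptor families held members that moved apart. Of 14 TREM and Siglec receptors 4 fell (2 without Ccr2-/- replicate 2) and 2 rose. Cd33 fell (0.371-fold, limma adjusted p = 0.0004) and Mag and Cd22 rose (1.78- and 1.68-fold, adjusted p 0.00153 and 0.00752). Of 12 measured MS4A genes 7 fell, led by Ms4a8a (0.313-fold, limma adjusted p = 0.000296), and Ms4a4b rose (1.48-fold, adjusted p = 0.00376). Of 8 CD300 receptors 4 fell, led by Cd300lg (0.332-fold, limma adjusted p = 0.000296), and 2 of them did after centring. Of 9 SLAM receptors 3 rose, 1 of them in every alternative setting, and 1 fell. Slamf7 rose (2.28-fold, limma adjusted p = 0.000653) and Slamf8 fell (0.521-fold, adjusted p = 0.00216). Of 18 scavenger receptors 8 fell, among them Scarb1 (0.649-fold), Scarb2 (0.715-fold) and Colec12 (0.702-fold), with limma adjusted p of 0.00202 to 0.00326, and 5 fell without wild type replicate 1 or without Ccr2-/- replicate 1.

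Toll-like receptors and their adaptors were lower almost throughout. Of 22 measured members 17 fell and none rose, with a median fold of 0.689. Tlr2, the receptor for bacterial lipoproteins, read 10.80, 10.59 and 10.67 in wild type and 9.41, 9.75 and 9.82 on the Ccr2-/- arrays (0.491-fold, limma adjusted p = 0.00112), without overlap. Its partner Tlr6 (0.608-fold), the RNA sensor Tlr8 (0.627-fold), the adaptor Ticam2 (0.567-fold) and the inhibitory kinase Irak3 (0.656-fold) fell with limma adjusted p of 0.000772 to 0.00114. Unc93b1, which carries nucleic acid sensors to endosomes, fell to 0.655-fold (limma adjusted p = 0.00115), and the DNA sensor Tlr9 read 11.72, 11.81 and 11.86 against at most 11.01 (0.554-fold, adjusted p = 0.0012). With each array centred on its median, 11 of the 22 fell against wild type.

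Interferon-stimulated genes, which are switched on by interferon through factors such as Stat2 and Irf9, were lower. Of 26 measured members 23 fell and none rose against wild type, with a median fold of 0.487. Against Ccl2-/- monocytes 18 of the 26 were lower, beside 2.87% of all genes, and 4 were without Ccr2-/- replicate 1 or without Ccr2-/- replicate 2. The median fold of the list against Ccl2-/- was 0.592, beside 0.945 over all genes. Oas2, an enzyme that activates RNA decay in infected cells, read 11.09, 11.11 and 11.09 in wild type, 11.17, 10.90 and 11.38 in Ccl2-/- and 9.97, 9.83 and 9.82 in Ccr2-/- monocytes. The Ccr2-/- arrays stood apart from both other groups (0.428-fold of wild type, limma adjusted p = 0.000653; 0.411-fold of Ccl2-/-, adjusted p = 0.00482). Oasl1 (0.383-fold), Oasl2 (0.368-fold) and Oas3 (0.451-fold) of the same family and the RNA sensor regulator Dhx58 (0.436-fold) fell with limma adjusted p of 0.000579 to 0.000653. Ifit3, which binds foreign RNA, read 10.53, 10.99 and 10.94 in wild type and 9.28, 9.17 and 9.08 in Ccr2-/- monocytes, the lowest fold of the list (0.32, limma adjusted p = 0.00112). The regulators Stat2 (0.67-fold), Irf9 (0.73-fold) and Irf7 (0.668-fold) fell with limma adjusted p of 0.00132 to 0.00258. The mean of the list was 10.90, 11.07 and 11.10 on the wild type, 10.74, 10.76 and 11.11 on the Ccl2-/- and 10.17, 10.12 and 10.06 on the Ccr2-/- arrays. The Ly-6Chi list was lower on the same arrays, and its part in these falls was not tested. Xaf1, an interferon-induced antagonist of an apoptosis inhibitor, fell against wild type (0.711-fold, limma adjusted p = 0.0273) and rose in Ccl2-/- monocytes, and it lost the first of these calls in 7 of 17 alternatives, without any 1 wild type array and without Ccr2-/- replicate 2 or 3 among them (adjusted p 0.0508 to 0.11).

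**Figure D4:**
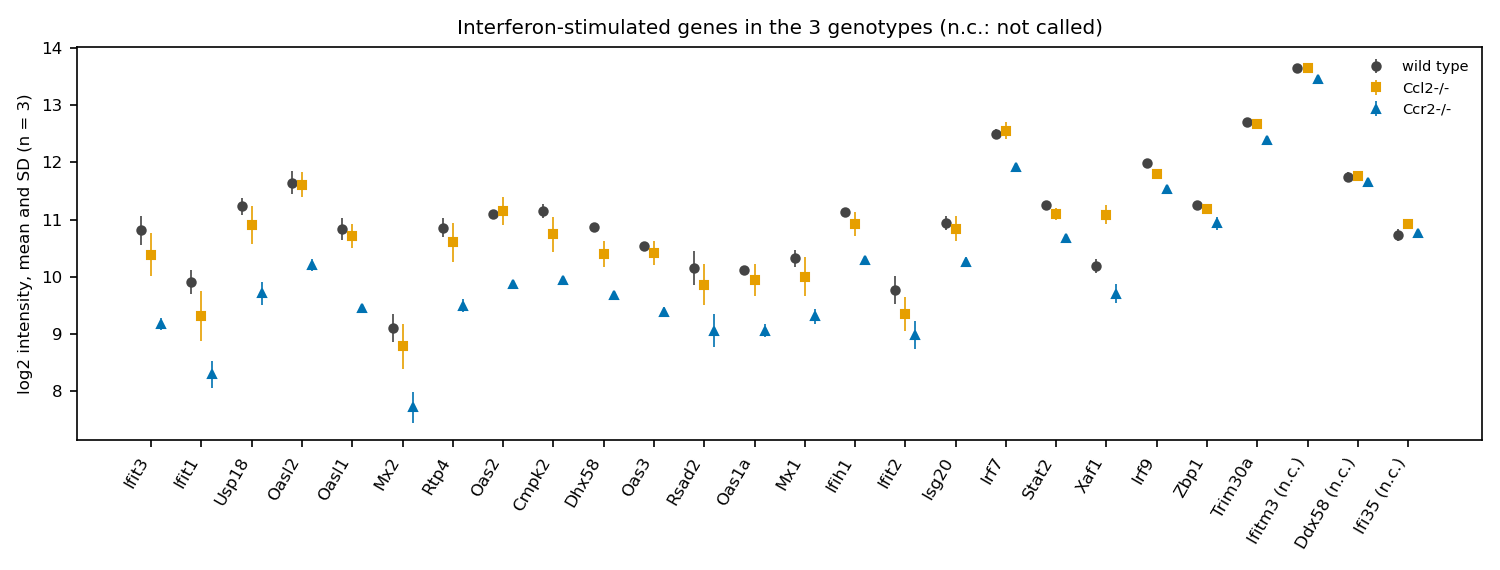
Log2 intensity (y axis, mean and SD of 3 arrays) of the 26 interferon-stimulated genes (x axis, ordered by fold change of Ccr2-/- over wild type) in wild type, Ccl2-/- and Ccr2-/- monocytes. The Ccr2-/- means lie below the other genotypes for 23 genes that fell, and Xaf1 is highest in Ccl2-/-.

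The factor complex of these genes binds a repeat known as the interferon-stimulated response element, and promoters of fallen genes are shown to make that repeat visible. Promoters, the 250 bases before the start site in RefSeq (GRCm38.p6), were searched on both strands for GAAA followed by any 2 bases and a further GAAA. Of the 26 members 19 have a promoter entry and 7 of these hold the letters, all among the 16 that fell, beside 3.46% of all 27025 genes with an entry. Capitals mark the match, which reads as TTTC repeats where it lies on the opposite strand. The stretches are 5′ to 3′ in the direction of the gene: Oas3 at chr5:120777695-120777764 (minus strand), Ifit3 at chr19:34583343-34583446 (plus), Oas1a at chr5:120907526-120907575 (minus), Stat2 at chr10:128270248-128270315 (plus) and Ifit1 at chr19:34640755-34640843 (plus).
Oas3: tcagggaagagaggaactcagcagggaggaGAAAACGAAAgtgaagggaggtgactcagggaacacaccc
Ifit3: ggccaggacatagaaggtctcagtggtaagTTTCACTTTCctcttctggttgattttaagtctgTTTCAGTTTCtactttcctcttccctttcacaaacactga
Oas1a: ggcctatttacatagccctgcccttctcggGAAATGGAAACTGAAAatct
Stat2: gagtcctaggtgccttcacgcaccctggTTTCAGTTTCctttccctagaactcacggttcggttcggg
Ifit1: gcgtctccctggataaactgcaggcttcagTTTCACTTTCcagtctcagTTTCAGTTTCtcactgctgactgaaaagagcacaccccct
Ifit3 and Ifit1 hold 2 matches each, and in Oas1a 2 matches overlap. A match is a run of letters in the reference and says nothing of what binds there in these cells.

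Interferon-inducible GTPases did not follow. Of 9 measured GBP and IRG genes 3 rose and 2 fell, and in every alternative setting 3 rose and 1 fell. Gbp4 (1.90-fold), Gbp8 (1.71-fold) and Gbp7 (1.34-fold) rose at limma adjusted p of 0.000884 to 0.00436, and Irgm1 (0.647-fold, adjusted p = 0.00319) fell. The interferon-induced chemokines Cxcl9 and Cxcl10 fell to 0.343- and 0.429-fold (limma adjusted p 0.000732 and 0.00806). Of the 31 chemokines 6 fell and 3 rose, 5 and none of them in every alternative setting. Ccl6 (0.672-fold) and Ccl9 (0.69-fold), which myeloid cells secrete, fell with limma adjusted p of 0.00132 and 0.00138.

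Sensors and mediators of inflammation showed the same mixture within families. Of 22 inflammasome and NOD-like receptor genes 9 fell and 2 rose. Nlrp3 (0.453-fold), pyrin, or Mefv (0.405-fold), and the protease Casp4 (0.642-fold) fell with limma adjusted p of 0.000576 to 0.00113, while Nlrc3 (2.25-fold) and Nod1 (1.49-fold) rose with adjusted p of 0.00083 and 0.00112. Of 21 genes of the eicosanoid, platelet-activating factor and formyl peptide pathway 10 fell and 2 rose, 8 and 1 of them in every alternative setting. Thromboxane synthase Tbxas1 (0.312-fold), the leukotriene B4 receptor Ltb4r1 (0.382-fold) and the platelet-activating factor receptor Ptafr (0.372-fold) fell with limma adjusted p of 0.000579 to 0.000764. The cysteinyl leukotriene receptors moved apart, with Cysltr1 at 0.337-fold and Cysltr2 at 2.32-fold (limma adjusted p 0.00086 and 0.00143). In the complement list 4 of 21 fell, among them Cd93 (0.331-fold), the alternative pathway factors Cfp (0.607-fold) and Cfb (0.417-fold), with limma adjusted p of 0.000534 to 0.00126.

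Coagulation genes had a similar division between factors and thrombin receptors. Of 18 members 8 fell and 2 rose. Besides F13a1, the factors F5 (0.374-fold) and F10 (0.409-fold) fell (limma adjusted p 0.000765 and 0.00125). Thbs1, the platelet and matrix protein thrombospondin, read 11.43, 11.52 and 11.47 in wild type, 11.51, 11.28 and 11.62 in Ccl2-/- and 10.23, 10.21 and 10.39 in Ccr2-/- monocytes. It was lower than in wild type (0.436-fold, limma adjusted p = 0.000517) and than in Ccl2-/- (0.437-fold, adjusted p = 0.00443). The 2 that rose were F2r (2.14-fold, limma adjusted p = 0.000579) and F2rl2 (2.55-fold, adjusted p = 0.00083), which encode protease-activated receptors. Of 24 integrin subunits 4 fell and 1 rose (2 without wild type replicate 3). Itga1 fell (0.404-fold, limma adjusted p = 0.000146) and Itga2, also a collagen receptor chain and a member of the NK cell list, rose (2.07-fold, adjusted p = 0.00121). Of 21 matrix metalloproteinases and ADAM proteases 6 fell, 4 of them in every alternative setting, with Adam19 (0.413-fold) and Adam15 (0.517-fold) at limma adjusted p of 0.00053 and 0.00119.

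**Figure D5:**
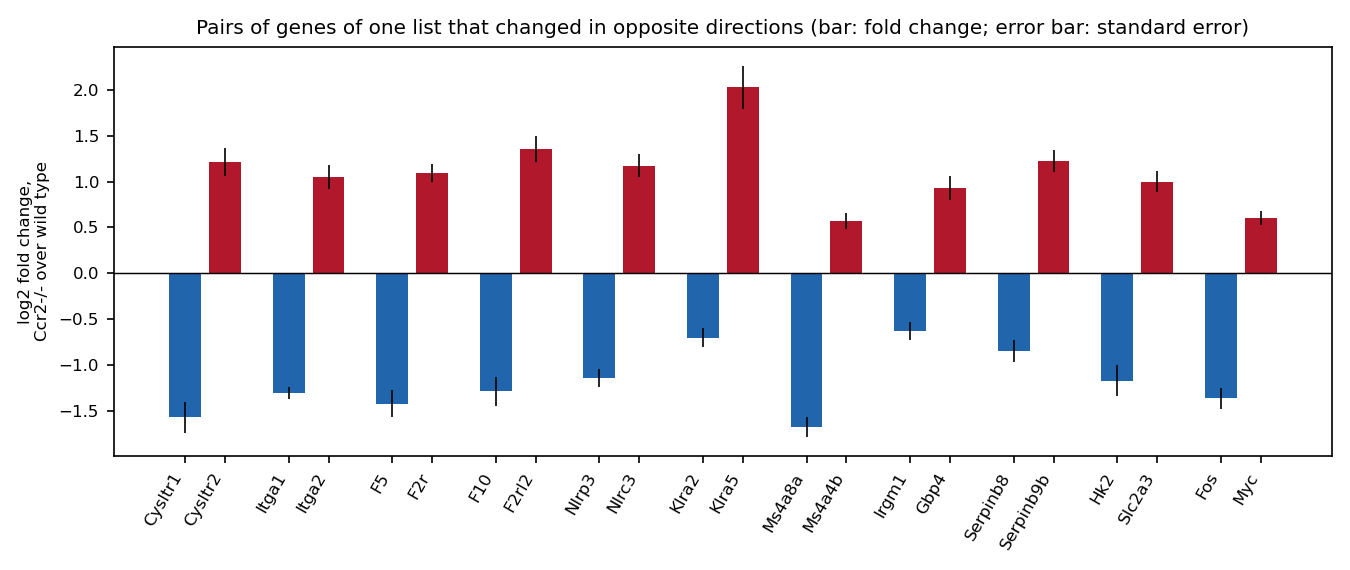
Log2 fold change of Ccr2-/- over wild type (y axis, bars from 0; error bar: standard error) for 11 pairs of genes from 1 list each that passed the limma test in opposite directions (x axis). The pairs were chosen after their values were seen and run from Cysltr1 and Cysltr2 to Fos and Myc.

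Lysosomal genes were lower. Of 27 measured cathepsins and lysosomal hydrolases 22 fell and 1 rose, with a median fold of 0.69. Ctsl, a cysteine protease, read 11.08, 10.83 and 10.78 in wild type and 9.23, 9.60 and 9.54 on the Ccr2-/- arrays (0.369-fold, limma adjusted p = 0.000829), without overlap. The cholesterol carrier Npc2 (0.567-fold), the carboxypeptidase Scpep1 (0.522-fold), the protease Ctsh (0.496-fold) and the hexosaminidase chain Hexa (0.579-fold) fell with limma adjusted p of 0.00053 to 0.00083. Ctsd, an aspartic protease, read 12.64, 12.64 and 12.48 in wild type, below every Ccr2-/- array (up to 13.03), and was the 1 member that rose (1.34-fold, limma adjusted p = 0.0126). It lost its call without wild type replicate 3 or Ccr2-/- replicate 2 (adjusted p 0.05 to 0.0534). The palindrome TCACGTGA, the core of the element that factors such as Mitf and Tfec bind before lysosomal genes, was found in 3 of the 22 members with a promoter entry, 2 of them among the 19 that fell, beside 0.907% of all genes with an entry. Those that fell were Gla, a galactosidase (0.584-fold, limma adjusted p = 0.00163; chrX:134601163-134601255, minus strand), and Ctsa, a carboxypeptidase (0.857-fold, adjusted p = 0.0419; chr2:164833730-164833772, plus strand), with the palindrome in capitals and letters from RefSeq (GRCm38.p6). Ctsa lost its call in 12 of 17 alternatives (adjusted p 0.0517 to 0.254), among them without any 1 wild type or Ccr2-/- array and without Ccl2-/- replicate 2 or 3.
Gla: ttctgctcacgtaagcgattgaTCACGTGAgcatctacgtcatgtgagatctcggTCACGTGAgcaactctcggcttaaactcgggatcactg
Ctsa: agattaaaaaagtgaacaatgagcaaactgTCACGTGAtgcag

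Some genes of lipid transport and of antigen presentation by MHC class II were lower as well. Of 14 lipid ABC transporters 6 fell and 2 rose, 5 and 1 of them in every alternative setting. Abca9 (0.263-fold), Abca6 (0.245-fold), the peroxisomal transporter Abcd2 (0.444-fold) and Abca3 (0.569-fold) fell with limma adjusted p of 0.000146 to 0.000653, and Abca9 and Abcd2 were also lower than in Ccl2-/- monocytes (0.44- and 0.588-fold, adjusted p 0.00454 and 0.00704). Of 12 MHC class II presentation genes 5 fell, among them the co-stimulatory proteins Cd86 (0.583-fold) and Cd80 (0.482-fold) and the peptide loader H2-DMa (0.615-fold), with limma adjusted p of 0.00143 to 0.004. MHC class II was one of the depleted surface proteins. Of 28 glutathione and antioxidant enzymes 7 fell and 2 rose, 6 and 1 of them in every alternative setting. Gpx8, a peroxidase of the endoplasmic reticulum, rose (2.87-fold, limma adjusted p = 0.000765) where the plasma peroxidase Gpx3 fell (0.413-fold, adjusted p = 0.00415).

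About 1 in 2 chaperones was higher. Of 15 measured cytosolic and mitochondrial chaperones 8 rose and none fell, with a median fold of 1.33. Hsph1, a partner of HSP70, read 9.69, 9.72 and 9.83 in wild type, 10.66, 10.48 and 10.49 in Ccl2-/- and 11.05, 11.05 and 10.93 in Ccr2-/- monocytes. The 3 groups did not overlap (2.40-fold of wild type, limma adjusted p = 0.00026). Hsp90aa1 (1.69-fold), Hspd1 (1.58-fold) and Dnajb4 (1.64-fold) rose with limma adjusted p of 0.00052 to 0.00101. Without Ccr2-/- replicate 2, 5 of the 15 rose. Heat shock factor binds repeats of GAA and TTC, and GAA, TTC and GAA with any 2 bases between neighbours were searched on both strands. It was found in 2 of the 12 members with a promoter entry, both among the 7 that rose, beside 0.514% of all genes with an entry. The 2 are the mitochondrial partners Hspd1 and Hspe1 (1.34-fold, limma adjusted p = 0.00967, and 0.0502 without Ccr2-/- replicate 2), which are read in opposite directions from 1 shared stretch, chr1:55088029-55088106 in GRCm38.p6, shown from RefSeq in the direction of Hspd1 (minus strand).
Hspd1: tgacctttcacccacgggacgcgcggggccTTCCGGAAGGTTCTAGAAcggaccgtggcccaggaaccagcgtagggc
The capitals cover 2 overlapping matches.

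Cell cycle genes that changed were mostly higher, and genes of metabolism that changed were mostly lower. Of 29 cell cycle and DNA replication genes 13 rose and 1 fell. The cyclin Ccnd2 (1.82-fold), the replication helicase subunits Mcm4 (1.42-fold) and Mcm6 (1.86-fold) and the topoisomerase Top2a (1.78-fold) rose with limma adjusted p of 0.0012 to 0.0056, and the kinase Aurkb fell (0.699-fold, adjusted p = 0.00264). The 13 were 6 without wild type replicate 1, 7 without wild type replicate 3, 7 without Ccr2-/- replicate 1 and 8 without Ccr2-/- replicate 2, and Top2a had an adjusted p of 0.19 with the mean of its array clusters. Of 30 oxidative phosphorylation genes 9 fell, with a median fold of 0.879, and none of the 9 was called in every alternative setting. Without wild type replicate 1 or Ccr2-/- replicate 2, 1 of the 30 fell. Of 24 ribosomal protein genes 2 fell, none of them in every alternative setting. Of 19 glycolysis genes 5 fell and 2 rose, 3 and 1 of them in every alternative setting. The enzymes Ldhb (0.361-fold) and Hk2 (0.444-fold) fell and the glucose transporter Slc2a3 rose (2.00-fold), with limma adjusted p of 0.000696 to 0.0026.

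Signalling and adhesion lists held further divided families. Of 22 immediate-early genes 5 fell and 4 rose, 2 and 3 of them in every alternative setting. Fos read 12.20, 11.98 and 11.72 in wild type, 11.85, 11.76 and 11.95 in Ccl2-/- and 10.64, 10.60 and 10.56 in Ccr2-/- monocytes (0.388-fold of wild type, limma adjusted p = 0.000543; 0.419-fold of Ccl2-/-, adjusted p = 0.00482). Atf3, a stress-induced factor, fell (0.31-fold, limma adjusted p = 0.00052), and Myc rose (1.52-fold, adjusted p = 0.00163). Of 18 clade B serpins 4 rose and 2 fell, 3 and 1 of them in every alternative setting. The granzyme inhibitors Serpinb9 (1.90-fold) and Serpinb9b (2.34-fold) and Serpinb6b (2.07-fold) rose, and Serpinb8 fell (0.554-fold), with limma adjusted p of 0.000697 to 0.00224. Of 18 purinergic genes 6 fell and 3 rose. The ATP-gated channels P2rx4 (0.452-fold) and P2rx7 (0.492-fold) fell and the receptor P2ry10 (1.85-fold) rose, with limma adjusted p of 0.00052 to 0.00271. Of 25 genes of the TGF-beta and BMP pathway 7 fell and 2 rose (1 without wild type replicate 1), among them Acvrl1 (0.43-fold) and Tgfbi (0.532-fold), and Smad3 rose (1.55-fold), with limma adjusted p of 0.000927 to 0.00366. Of 26 semaphorin and plexin genes 5 fell and 3 rose, and 3 fell after centring. Plxnd1 had the lowest fold (0.347-fold, limma adjusted p = 0.000386), and Sema6a rose (1.93-fold, adjusted p = 0.00139). Of 19 S100 proteins and annexins 6 fell, and the 1 that rose did not in every alternative setting. Those that fell included Anxa4 (0.477-fold), S100a4 (0.48-fold) and Anxa1 (0.607-fold) at limma adjusted p of 0.000731 to 0.00303.

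Some of the largest changes lay outside these lists. Maob, a monoamine oxidase, read 0.25-fold of wild type (limma adjusted p = 0.000719), Atrnl1, a relative of attractin, 0.268-fold (adjusted p = 0.00076) and the sphingomyelin synthase Sgms2 0.295-fold (adjusted p = 0.000386). The junctional protein Jaml, the adaptor Gab1 and the creatine synthesis enzyme Gatm fell to 0.30- to 0.308-fold (limma adjusted p 0.0004 to 0.00082). Among the rises were Samd3 (2.80-fold), the helicase Ddx43 (2.79-fold), the potassium channel subunit Kcnj8 (2.78-fold), the adaptor Clnk (2.70-fold), the neurotrophic factor receptor Gfra2 (2.62-fold) and the vesicle protein Sytl3 (2.54-fold), with limma adjusted p of 0.000386 to 0.00103. The remaining lists include those of plasmacytoid dendritic cells, endothelial cells and progenitors, and oxidase and granule proteases. Lysophospholipid receptors, cholesterol synthesis, iron handling and MHC class I presentation are others. In each of these lists at most 2 members rose and at most 4 fell. No member of the sex-linked list was called.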

How the data were processed

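Total RNA of CD11b-selected blood monocytes from pools of 5 mice was hybridised to Affymetrix Mouse Gene 1.0 ST arrays, 3 for each of 3 genotypes. The deposited values are linear intensities per transcript cluster, which the authors computed with dChip; the sources used here do not give its version, background correction or normalization, and compressed or shifted low intensities cannot be recovered. Of 35512 clusters, 21789 had 1 gene symbol in the platform annotation, 1621 had several and 12102 had none, and only the first kind was used for genes. For each of 19936 genes the cluster with the highest mean was kept (1001 genes had several), and symbols were updated through Entrez number (19854), accession (2) or kept (80). Values were raised to a floor of 1 (2 values) and log2 transformed, with no further normalization.

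Genotypes were taken from the sample labels. All 9 arrays were fitted with limma 3.58.1 (lmFit and eBayes, R 4.3.3), Ccr2-/- was contrasted with wild type and with Ccl2-/-, and p was adjusted after Benjamini-Hochberg over all 19936 genes with a threshold of 0.05. Tables and figures were made with Python 3.11.15, pandas 2.3.3 and NumPy 2.4.6, and the fit was tested on simulated data. The size limits of the methods (ratio over 1.2 and difference over 100) were applied to mean linear intensities without a test.

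The comparison and its 61 gene lists were chosen with earlier results of these data known. Genes named were drawn from several groups, and not every member of a group is named. The first group held the 15 largest changes in each direction that passed the test and did not overlap. Their mean log2 level was at least 7 in the higher group, and predicted, olfactory and vomeronasal genes were left out. The others were up to 5 members with the smallest p and the defining members of each list, the neighbours of Ccr2 and genes the study names. Csf1r, Irf4, Msr1, Klf4, Tgfbr3, Mr1 and Ets1, which the study names, are not described here. Cldnd2, Clip4, Zdhhc15, Klf12 and Cpne7, which are among the largest rises, are not described either. Family members that moved apart and the other genes singled out were chosen after their values were seen. Alternatives tried were a mean intensity over 100, quantile normalization, medians set equal between arrays by centring, an intensity trend, an offset of 50, the mean of a gene's clusters, a fit of 6 arrays, the replicate number as a block, and each array left out in turn. The same settings were applied to the contrast with Ccl2-/- after the data were seen. Promoters came from RefSeq (GRCm38.p6), and genes with no entry were not searched.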

Additional observations from a re-analysis of the deposited data

Results flagged for a closer look

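Xaf1 moved in opposite directions in the 2 knockouts. It read 10.08, 10.18 and 10.32 (log2 intensity) in wild type, 11.02, 10.96 and 11.28 in Ccl2-/- and 9.90, 9.62 and 9.60 in Ccr2-/- monocytes, and no group overlapped another. It was 1.85-fold higher in Ccl2-/- (limma adjusted p = 0.0413) and 0.711-fold in Ccr2-/- (adjusted p = 0.0273) than in wild type, and the direct test gave 0.383-fold of Ccl2-/- (adjusted p = 0.00454). The call against wild type in Ccr2-/- was lost in 7 of 17 alternatives (limma adjusted p 0.0508 to 0.11 there), and the direct call in none of 16. The call of Ccl2-/- against wild type was not put through the alternatives. Genes near Ccl2 on its chromosome were not examined, so an effect of the altered locus on Xaf1 was not tested. Both comparisons with wild type share the wild type arrays.

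Clusters outside the gene comparison also changed. Of the 1621 clusters with several symbols, 65 (4.01%) passed the limma test over all clusters, 40 higher and 25 lower in Ccr2-/- monocytes. Of the 12102 with no symbol, 357 (2.95%) passed, 168 higher and 189 lower.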

How the results depend on the processing

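Of 190 calls of named genes, 181 were kept in all 17 alternatives, 9 were lost in at least 1 (given beside the genes), and none turned. With each array centred on its median 1645 genes were called, 959 of them lower, and the pan-monocyte and toll-like receptor lists had 7 and 11 lower members. At an unadjusted p under 0.05 there were 4634. Calls that were higher made up 36.9%, and 48.9% after quantile normalization, where the median log2 change was -0.30 for pan-monocyte, -0.48 for toll-like receptor and 0.47 for chaperone genes. With the replicate number as a block 731 genes were higher and 1363 lower, and the wild type and Ccr2-/- arrays of equal number correlated at 0.103, 0.0212 and -0.148, so the numbers were not taken as pairs.

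With 1 array left out, 1663 to 3479 genes were called (553 to 1397 higher, 1110 to 2082 lower) and 2941 to 3588 passed the size limits (1150 to 1623 higher, 1791 to 1965 lower). Counts and median log2 changes ran from 7 to 9 and -1.43 to -1.17 for Ly-6Chi, 10 to 13 and -0.39 to -0.31 for pan-monocyte, 18 to 23 and 0.76 to 0.80 for NK cell, 8 to 8 and 0.98 to 1.08 for GIMAP, 14 to 17 and -0.57 to -0.51 for toll-like receptor, 18 to 23 and -1.07 to -0.96 for interferon-stimulated, 18 to 23 and -0.55 to -0.46 for lysosomal and 5 to 8 and 0.38 to 0.44 for chaperone genes. Against Ccl2-/- 261 genes were called with centring, 1344 with an intensity trend, 167 with the replicate block and 22 to 1190 with 1 array left out. Of 1377 values of the other list counts, 184 moved by over 1.5 times. The cause of these shifts was not tested.

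Uncalled genes changed sign. After quantile normalization Treml4 had a log2 change of 0.031 and Ace of 0.041. With 1 array left out Treml4 ran from -0.083 to 0.043, Ace from -0.054 to 0.045, Ccr9 from -0.23 to 0.0103, Cd3e from -0.63 to 0.61 and Cd4 from -0.82 to 0.42.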
